A study of Mus musculus with 1505 samples.

Results

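The intronic share of RNA counts was compared between excitatory and inhibitory neurons of mouse primary motor cortex recorded at 25 °C. The share was defined, per cell and per gene, as intronic counts divided by the sum of intronic and exonic counts. Cells were taken as excitatory when the label gave a t-type (transcriptomic type) beginning with a cortical layer, and as inhibitory when it began with Pvalb, Sst, Vip, Lamp5 or Sncg. With the minimum of 200000 exonic counts per cell, 1157 of the 1505 cells of the series entered, of which 34.1% were excitatory and 65.9% inhibitory. The minimum kept 95.6% of the excitatory and 93.5% of the inhibitory cells with a t-type at this temperature. The cells carried 27 excitatory and 51 inhibitory t-types.

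Introns are removed from most protein-coding transcripts during or soon after transcription, so reads from introns come largely from unspliced RNA in the nucleus, whereas exonic reads come from unspliced and mature RNA alike. Excitatory cortical neurons use glutamate and include intratelencephalic (IT), extratelencephalic (ET), corticothalamic (CT), near-projecting (NP) and L6b families. The inhibitory families named here release GABA and project mostly within the cortex.

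In Patch-seq, the contents of a neuron in an acute brain slice were aspirated through the recording pipette after the electrical recording, and cDNA was made with Smart-seq2, which has no molecular identifiers. The mice were adult males and females, either wild-type C57Bl/6 or carrying a Cre driver (such as Viaat-Cre, Sst-Cre, Vip-Cre or Pvalb-Cre) with the Ai9 reporter. The labels give neither the genotype nor the animal of a cell. The driver lines mark mainly inhibitory classes, and the methods state shorter recordings for excitatory neurons than for interneurons and an aspiration in which the nucleus mostly came out of the soma at the pipette tip, although taking it up completely was avoided. The pipette tip was also chosen by the size of the neuron. The methods name ET cells as an example of large neurons and Vip cells as one of small neurons. Driver line, recording time, pipette and class therefore cannot be told apart here, nor can pipette and family for ET and Vip cells. The t-types themselves had been assigned by the authors from exonic and intronic counts of the same cells.

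Depth was similar in both classes. In excitatory cells the exonic counts ran from 203219 to 18172944 per cell, and in inhibitory cells from 209167 to 14227326. Their medians were 1225810 and 1371460 to 6 digits. The summed excitatory markers (among them Slc17a7, Neurod6, Neurod2, Tbr1, Nrgn, Emx1 and Sv2b) were above the summed inhibitory markers (among them Gad1, Gad2, Slc32a1, Dlx1, Dlx2, Dlx5 and Dlx6os1) in all but 6 excitatory cells. The reverse held in every inhibitory cell. Those 6 cells had intronic shares from 9.67% to 58.9%, and the class difference of 7.49 points below was the same without them. Because no animal is named, each class was treated as 1 sample, and the differences are given with the spread over cells and over recording days and without a test. Exact binomial intervals (95%) are given for percents of cells. They cover counting error only and treat cells as independent, although cells share recording days and animals.

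The intronic share of a cell was higher in excitatory than in inhibitory cells over all recording days combined. The median excitatory cell had 46.8%, with quartiles of 22.4% and 55.9% and extremes of 1.83% and 76.1%. The median inhibitory cell had 39.3%, with quartiles of 20.9% and 48.8% and extremes of 2.18% and 69.1%. The ranges of the classes overlapped almost completely, and the medians differed by 7.49 percentage points. The means were 39.6% ± 20.8 and 34.96% ± 17.2 (SD over cells), a smaller difference of 4.66 points. Shares under 10% were found in 72 excitatory cells (18.2%, 95% interval 14.5% to 22.4%) and in 110 inhibitory cells (14.4%, interval 12.02% to 17.1%), so that a group of cells with few intronic reads was present in both classes. The paper itself reports an apparent split of the cells by intronic and exonic counts. It states that extraction of the nucleus in some cells and not in others could explain this split, which was not tested here.

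Families within a class differed as much as the classes did. ET cells, the thick-tufted neurons that project to brainstem and spinal cord, had the highest median of 52.98% (quartiles 45.9% and 58.4%, n = 44). IT cells, which project within the forebrain, followed with 48.005% (29.9% and 56.6%, n = 240). L6b cells had 41.5% (9.66% and 55.02%, n = 24) and the 5 NP cells 40.9% (37.98% and 54.6%). CT cells, the layer 6 neurons that project to thalamus, stood lowest of all families at 26.1% (5.19% and 49.2%, n = 82), below every inhibitory family.

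Inhibitory families lay closer together. Pvalb cells, fast-spiking interneurons, had a median of 42.8% (quartiles 26.6% and 49.5%, 35.8% of the inhibitory cells) and Sst cells, which target dendrites, 40.2% (25.3% and 48.9%, 31.1% of the cells). Sncg cells had 37.7% (n = 13), Lamp5 cells 36.1% (n = 90) and Vip cells, which contact mainly other interneurons, 34.3% (19.6% of the cells). The quartile ranges of all pairs of families overlapped apart from those of ET and Vip. Among t-types with at least 5 cells, medians ran from 8.33% (L6 CT Pou3f2) to 57.4% (L6 IT_1) over 13 excitatory t-types. Over 38 inhibitory t-types they ran from 9.43% (Vip Htr1f) to 51.3% (Sst Htr1a).

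**Figure D1:**
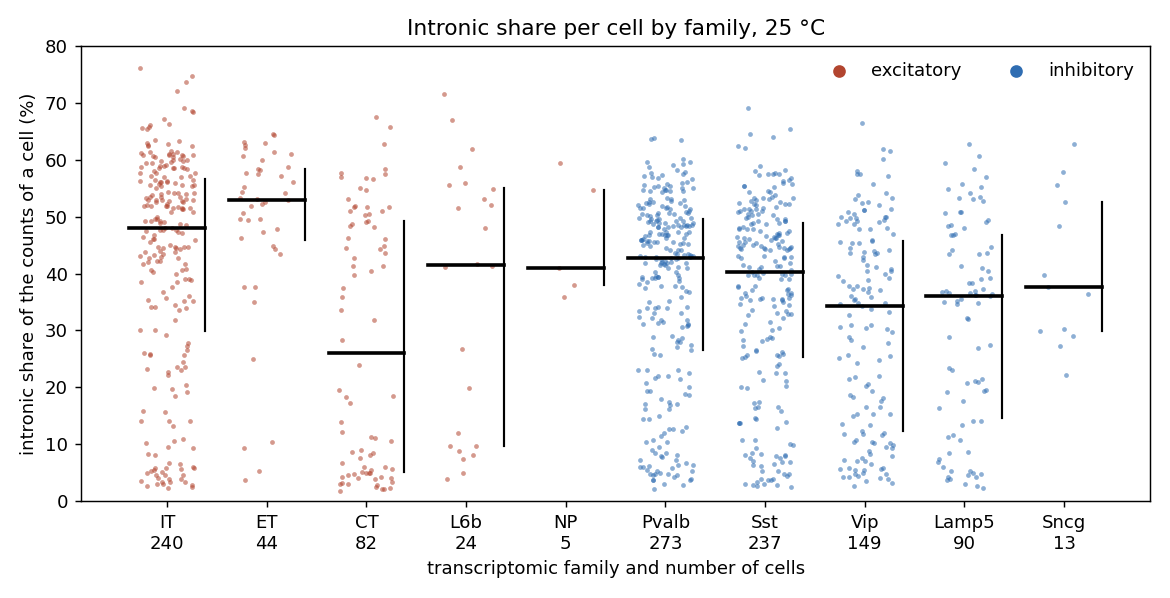
Intronic share of each of the 1157 cells (vertical axis, percent) by family (horizontal axis, with the number of cells), excitatory in red and inhibitory in blue. The horizontal bar is the median and the vertical bar runs between the quartiles. Every family apart from Sncg and NP holds cells below 10%, among them 31 of the 82 CT cells. The medians run from 26.1% in CT to 52.98% in ET cells.

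The class difference depended on when cells were recorded. In 2017 and 2018 the medians were 51.5% in excitatory and 42.6% in inhibitory cells, a difference of 8.94 points. All inhibitory cells of this period were recorded in 2018, whereas 15 excitatory cells were from 2017 (median 37.7%), and the other excitatory cells, from 2018, had a median of 51.9%. In 2019, when 51.1% of the excitatory and 69.2% of the inhibitory cells were recorded, they were 41.4% and 38.1%, a difference of 3.24 points, and the means of 33.6% ± 21.9 and 34.01% ± 17.6 (SD) had the opposite order. Excitatory cells with a share under 10% made up 7.25% (95% interval 4.02% to 11.9%) in the earlier period and 28.7% (22.6% to 35.5%) in 2019. For inhibitory cells the corresponding values were 9.79% (6.31% to 14.3%) and 16.5% (13.4% to 19.96%).

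The families were recorded at different times, so period and family were partly mixed. Of the 82 CT cells, 81 were recorded in 2019, and of the 44 ET cells, 39 were recorded before. The IT family, which had many cells in both periods, had a median of 51.2% before and 44.5% (n = 88) in 2019. Pvalb cells had 42.9% (n = 140) and 41.98%. The difference between IT and Pvalb was therefore smaller in 2019 as well.

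**Figure D2:**
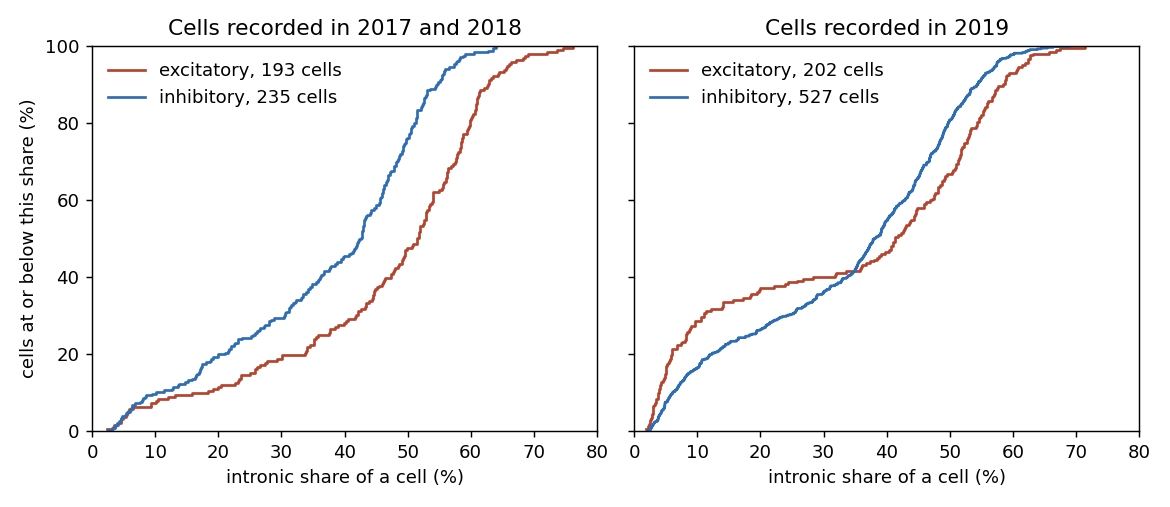
Percent of cells (vertical axis) whose intronic share was at or below the value on the horizontal axis (percent), for cells recorded in 2017 and 2018 (left) and in 2019 (right). Excitatory cells (red) lie to the right of inhibitory cells (blue) over most of the left panel. In the right panel the curves cross, with 28.7% of excitatory and 16.5% of inhibitory cells below a share of 10%.

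Within recording days the difference did not hold in a uniform direction. Of the days on which both classes were recorded, the mean share was higher in excitatory cells on 60 and in inhibitory cells on 42. The difference within a day averaged 3.21 ± 20.4 points (SD over days) and ran from -41.6 to 53.9 points. On the 43 days with at least 2 cells of each class, it averaged 0.0166 ± 16.8 points, with excitatory cells higher on 22 days and inhibitory cells higher on 21 days. The SD over days was thus larger than the class difference. Many days held few cells of a class, so this SD includes the spread between cells and does not measure variation between days alone. On the 43 days with at least 2 cells of each class the mean difference was near 0.

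**Figure D3:**
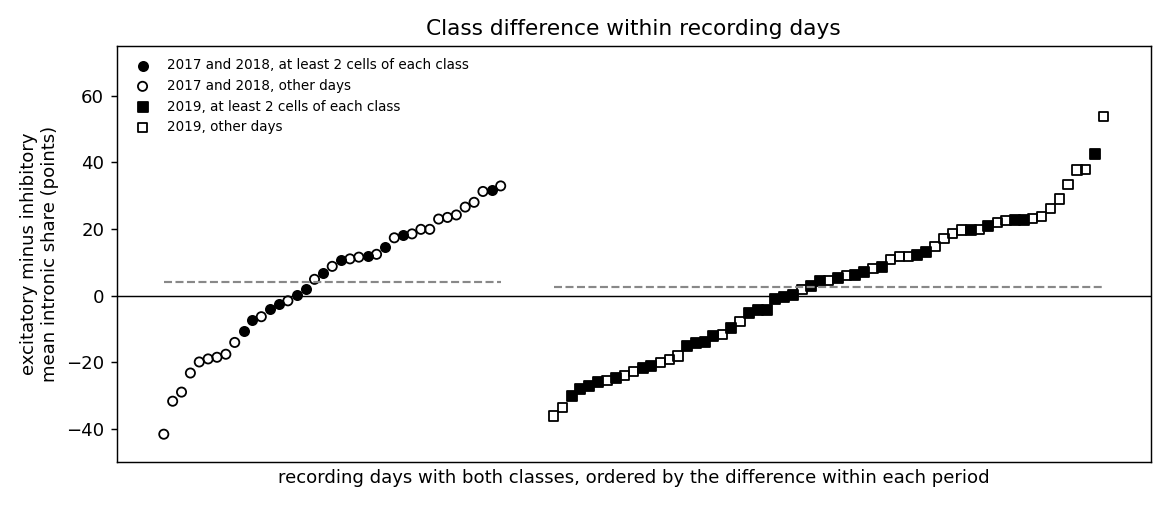
Difference of the mean intronic share, excitatory minus inhibitory (vertical axis, percentage points), on each recording day with both classes, ordered by size within each period. Circles are days of 2017 and 2018 and squares are days of 2019, filled where the day had at least 2 cells of each class. Dashed lines are the means over days, 4.18 points before 2019 and 2.61 points in 2019, and values lie on both sides of 0 in both.

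Other measures of the cells moved with the intronic share. Malat1, a long noncoding RNA retained in the nucleus, had a median of 10669 exonic CPM (counts-per-million, counts scaled to the exonic total of the cell) in excitatory and 6466 CPM in inhibitory cells. Over cells, its level had a Spearman correlation with the intronic share of 0.715 over the excitatory and 0.751 over the inhibitory cells. Meg3, another nuclear noncoding RNA, had the reverse order of medians, 4357 CPM in excitatory and 5630 CPM in inhibitory cells, with correlations of 0.778 and 0.749. The summed nuclear noncoding RNAs had medians of 27539 CPM in excitatory and 28427 CPM in inhibitory cells. Cells were also divided into 4 equally filled groups by each level. From the lowest to the highest Malat1 group the medians differed by -2.32, 0.40, 1.04 and 5.51 points, excitatory minus inhibitory. By Meg3 it was -1.16, 13.1, 8.31 and 7.97 points, and by the summed level -1.99, 9.29, 7.66 and 7.15 points. These are descriptions over cells that share days and animals, and the part of nuclear content in the class difference was not tested.

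Spike-in sequences, which have no introns, held 0 intronic counts, and their share of the exonic reads was similar in the classes (medians 3.02% and 3.09%). In 4 equally filled groups of cells by exonic counts, excitatory cells had the higher median in each, by 3.37 to 14.5 points. By the number of genes with an exonic read, the order was reversed in the lowest group. There the medians were 9.34% in 99 excitatory cells and 25.6% in inhibitory cells, against differences of 5.28 to 16.2 points with excitatory cells higher in the other 3 groups.

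Markers of other cell types were detected in both classes, which does not show in which cells their RNA was made. The summed microglia markers had medians of 220.5 CPM (range 0 to 13251) in excitatory and 268.9 CPM (0 to 21214) in inhibitory cells, with 35 and 95 cells at 0. The summed astrocyte markers had medians of 576.6 CPM (0 to 7558) in excitatory and 221.6 CPM (0 to 6597) in inhibitory cells. Most of this difference lay in Slc1a2 (383.6 and 104.6 CPM over the class) and part in Aldoc (286.8 and 220.1 CPM), whereas Aqp4 (1.36 and 5.67 CPM) and Gja1 (8.80 and 9.65 CPM) had the other order and Slc1a3 and Gfap were close. The medians of the summed oligodendrocyte markers were 474.1 CPM (0 to 30100) and 228.7 CPM (0 to 27594). No marker of these lists was at 0 in either class as a whole. The class difference was not in one direction across the levels of astrocyte and microglia markers. In the lowest of 4 equally filled groups by astrocyte markers the medians were 9.81% in 32 excitatory cells and 41.2% in inhibitory cells, and in the other 3 groups excitatory cells were higher by 5.25 to 12.4 points. In the lowest of 4 groups by microglia markers they were 34.5% and 41.6%, and in the other 3 groups excitatory cells were higher by 7.64 to 16.3 points. The part of these cell types in the class difference was not tested.

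Gene by gene, the share was higher in excitatory cells for most genes over all days combined, by a small amount. A cell entered for a gene when it had at least 20 counts of it, and a gene was compared when at least 30 cells of each class entered, which held for 13482 genes. Where a percent of cells stands beside a mean, it is the percent of the cells of that class that entered. These genes held 97.98% of the intronic and 97.8% of the exonic counts. The median share over genes was 27.2% in excitatory and 23.7% in inhibitory cells, and the shares in both classes were close over genes (Pearson 0.973 over 13482 genes, which are not independent). The share was higher in excitatory cells for 8406 genes, higher in inhibitory cells for 3669 (62.3% and 27.2% of those compared) and equal for 1407, nearly all of them at 0 in both. The median difference was 1.32 points, 2.09 points before 2019 and 0 points in 2019. On the days with both classes it was 0.0106 points.

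Differences of single genes are given below relative to this median of 1.32 points. At least 10 points above it lay 1203 genes, 8.92% of those compared, and at least 10 points below it lay 2.05%. The spread over cells of a single gene was larger than this limit, with a median SD of 28.4 points in excitatory and 28.9 points in inhibitory cells. Of the 1203 genes, 1108 could be compared in both periods, and 1036 (93.5%) were on the same side of the median in each. For the genes in the other direction it was 94.4%, and for all compared genes 53.07%. The 53.07% was lowered by construction. Of the compared genes, 1402 were at 0 in both classes. Such genes lay below the median in the earlier period, whereas in the later period the median was itself 0 and they lay on neither side. The distance of the other percents from 53.07% is therefore partly due to genes without intronic counts. The limit used the same cells, so the percents only describe how far the periods shared a direction.

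The genes with the higher share in one class tended to have fewer exonic counts there. Among the 1203 genes, 966 had a higher intronic CPM, scaled likewise to the exonic total, in excitatory cells, and most had a lower exonic level. The median log2 ratios, excitatory over inhibitory after adding 1 CPM, were -0.30 for exonic and 0.64 for intronic counts. Of the genes in the other direction, 77.6% had a higher exonic level in excitatory cells, with median log2 ratios of 0.61 for exonic and -0.07 for intronic counts. Over all compared genes both medians were near 0 (-0.02 and 0.04). Exonic counts are part of the share, so the exonic ratio and the difference are not separate measurements.

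**Figure D4:**
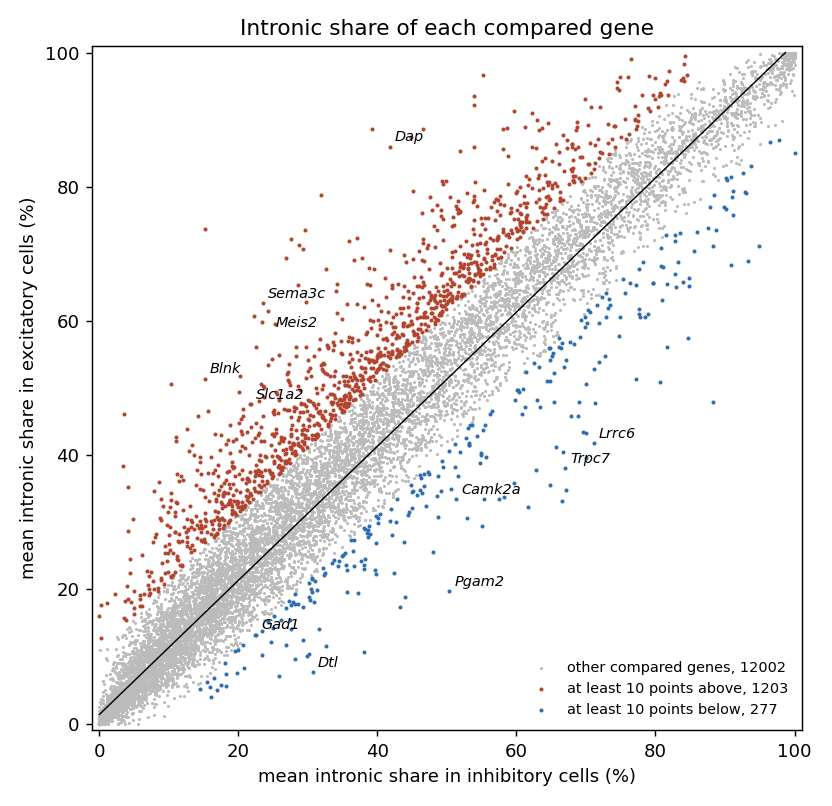
Mean intronic share of each of the 13482 compared genes in inhibitory (horizontal axis, percent) and excitatory cells (vertical axis, percent). The line marks the median difference of 1.32 points. Red points are the 1203 genes at least 10 points above it and blue points the 2.05% of genes at least 10 points below it, and both are spread along most of the range of shares.

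The 12 leading genes with a higher share in excitatory cells were taken from those that kept their direction in both periods and overlapped no other annotated gene. Among them Sema3c, a secreted semaphorin that guides axons, was 37.8 points above the median difference. Its share had a median of 78.7% over 75 excitatory cells and 10.3% over 22.6% of the inhibitory cells, with cells from 0% to 100% in both. By family the means were 70.96% in ET (n = 23) and 55.7% in IT cells (n = 48), against 18.7% to 27.02% in the inhibitory families with at least 5 cells. The means of these families did not overlap between the classes. Sema3c was chosen by the size of its class difference, so this is no separate result, and no means are given for CT, L6b and NP cells. The exonic level had the other order, with 16.3 CPM in excitatory and 70.2 CPM in inhibitory cells, while the intronic level was 35.3 and 23.8 CPM.

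Extracellular matrix genes were also among them. Lamb1, a laminin chain, had means of 67.7% ± 33.4 (SD, n = 57) in excitatory and 32.6% ± 39.5 in inhibitory cells, of which 26.5% entered, and Col11a1, a fibrillar collagen chain, 59.6% ± 39.1 (n = 76) and 25.2% ± 33.5 (33.9% of the inhibitory cells). Relative to the median, they were 33.8 and 33.04 points higher. Exonic counts of both were lower in excitatory cells, at 6.70 against 30.9 CPM for Lamb1 and 14.8 against 92.5 CPM for Col11a1.

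Of the genes that also had more exonic counts in excitatory cells, Meis2 encodes a homeodomain transcription factor and Blnk an adaptor of B cell receptor signalling. Meis2 had a median share of 75.9% over 56.2% of the excitatory cells and of 0% over 51 inhibitory cells, with values from 0% to 100% in both. The exonic level was 68.8 CPM in excitatory and 4.43 CPM in inhibitory cells, so that few inhibitory cells entered. Blnk had medians of 53.9% (42.3% of the excitatory cells) and 0% (n = 51), at 54.7 and 13.7 exonic CPM. Relative to the median difference they were 35.9 and 34.9 points higher.

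Also among the 12 were Mthfd2l, an enzyme of mitochondrial folate metabolism (45.5 points), Dap, a regulator of autophagy (42.9 points), As3mt, an arsenic methyltransferase (34.7 points), Sft2d2, a vesicle transport protein (33.6 points), Havcr2, an immune receptor (31.9 points), and Ttc39a (30.7 points). Of the 12 genes, 9 had a lower exonic CPM in excitatory than in inhibitory cells. At least 37 excitatory and 34 inhibitory cells entered for each.

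In the opposite direction the differences were smaller. Pgam2, the phosphoglycerate mutase of muscle, on chromosome 11 from 5801640 to 5803733 (mm10, minus strand), had a share from 0% to 90.2% with a median of 0% over 55 excitatory cells. Over 88 inhibitory cells it ran from 0% to 89.7% with a median of 63.7%. The difference was -31.9 points relative to the median. Trpc7, a cation channel, had medians of 16.3% (n = 56) and 92.6% (n = 85) and a relative difference of -30.2 points. It was not uniform over excitatory families, with a mean of 64.6% in 16 ET cells and 24.1% in 35 IT cells, and the ET mean lay within the range of the inhibitory families, 44.7% to 75.8%.

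Dtl, a substrate receptor of a ubiquitin ligase that acts in DNA replication, had a mean share of 7.65% ± 18.5 (SD over 47.6% of the cells) in excitatory and 30.7% ± 35.7 (n = 35) in inhibitory cells. Its exonic level was 80.3 CPM in excitatory and 4.17 CPM in inhibitory cells. Arhgap25, a GTPase-activating protein, had 47.7% ± 40.2 (40.8% of the cells) and 71.4% ± 41.8 (n = 76) at 57.7 and 4.25 exonic CPM. With at least 50 instead of 20 counts per cell the relative difference of Arhgap25 was 1.71 points, in the other direction.

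The remaining 8 were Lrrc6, needed to assemble the dynein arms of cilia (-30.6 points), Nrros, which is known from microglia (-26.98 points), Trp53inp1, a target of p53 (-25.1 points), Myl6b, a myosin light chain (-23.6 points), Stac3, known from muscle (-23.2 points), and 2810459M11Rik, 1700030J22Rik and Gm5165 (-27.5, -26.5 and -19.3 points). All 12 had a higher exonic CPM in excitatory than in inhibitory cells.

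Receptors of the transmitter GABA had the largest median difference of the neuronal gene groups. Of 12 compared GABA-A receptor subunits, 11 had a higher share in excitatory cells, and the median difference was 7.59 points, against 1.32 over all genes. At least 10 points above the median of all genes lay 3 subunits and 0 lay at least 10 points below it, against 8.92% and 2.05% of all compared genes. The median intron length of the subunits was 115014 bp. In the longest of 5 groups of genes by intron length, described below, the median difference was 4.13 points. There 79.4% of genes were higher in excitatory cells. The difference of the 12 subunits as a whole was larger in the earlier period. The median over the 12 subunits, relative to all genes, was 9.83 points in 2017 and 2018 and -0.24 points in 2019, when 6 of 12 lay above the median of all genes. Among the subunits past 10 points, and named after their values were seen, Gabrb2, a beta subunit, lay at 10.4 points over all cells and 3.09 points in 2019. Gabrg1, a gamma subunit, lay at 13.7 points but at -5.87 points in 2019.

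Voltage-gated ion channels, which shape the action potential, had a median difference of 4.89 points over 36 genes, with 28 higher in excitatory cells (62.3% of all compared genes were) and 4 at least 10 points above the median of all genes, a share of members near the 8.92% of all genes. Their median intron length was 159616 bp. In the longest of 5 groups of genes by intron length, described below, the values were close to these. There the median difference was 4.13 points and 79.4% of genes were higher in excitatory cells. Relative to all genes, the median of the list was 3.71 points before 2019 and 0.44 points in 2019. Scn1a, a sodium channel with high levels in fast-spiking interneurons, had a mean share of 48.1% ± 28.6 (SD) in excitatory and 37.99% ± 28.4 in inhibitory cells, over 79.7% and 88.6% of the cells. The relative difference was 8.80 points and lay at 5.92 points before 2019 and 10.5 points in 2019. Its exonic level was 214.9 CPM in excitatory and 452.9 CPM in inhibitory cells. Scn2a (0.14 points) and the calcium-activated potassium channel Kcnma1 (-3.29 points) were close to the median.

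Channel genes past 10 points were named after their values were seen. Kcnc1, a potassium channel of fast-spiking cells, had means of 29.7% and 17.3% and a relative difference of 7.06 points in 2019. Hcn2 and Cacna1i were at 12.9 and 11.8 points over all cells but at 1.202 and -1.42 points in 2019.

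Glutamate receptors showed no common direction. Of 20 compared genes, 14 had a higher share in excitatory and 6 in inhibitory cells, with a median difference of 2.90 points. Over all compared genes, 62.3% and 27.2% did. Relative to all genes, the median of the list was 5.24 points before 2019 and 0.51 points in 2019. Gria2, an AMPA receptor subunit, had means of 26.2% ± 18.4 and 22.7% ± 17.1 (SD over 93.2% and 91.6% of the cells), and the NMDA receptor subunit Grin2b had 63.5% ± 26.5 and 63.8% ± 27.3 (90.6% and 91.99% of the cells). Gria1 was 8.32 points above the median over all cells and 1.28 points in 2019. Chosen after their values were seen, Grin3a, a further NMDA receptor subunit, lay 29.5 points above the median (28.03 in 2019), whereas the metabotropic receptor Grm3 lay at -11.7 points (-13.6 in 2019).

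Chromatin regulators had a higher share in excitatory cells for 30 of 34 genes (62.3% of all compared genes did), with a median difference of 4.13 points. Past 10 points was 1 gene, against 8.92% of all compared genes above the median. Their median intron length was 80802 bp. In the 4th and the longest of 5 groups of genes by intron length, described below, 72.5% and 79.4% were higher in excitatory cells. The median differences there were 3.62 and 4.13 points. Hdac9, a histone deacetylase, had means of 91.5% ± 15.7 and 86.4% ± 22.5 (SD over 98.5% and 98.2% of the cells), with relative differences of -3.77 points before 2019 and 9.46 points in 2019. Atrx, a chromatin remodeller, had 20.9% ± 22.8 and 17.1% ± 22.6 (85.6% and 87.3% of the cells). The median of the list relative to all genes was 2.79 points before 2019 and 1.78 points in 2019.

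Long genes of synapse and cell adhesion carried the highest shares and showed small differences. The median share over 40 such genes was 84.7% in excitatory and 83.6% in inhibitory cells. Higher in the former were 22 genes and in the latter 18, against 62.3% and 27.2% of all compared genes. The median difference was 0.81 points and the median intron length 1.107e+06 bp. In the longest of 5 groups of genes by intron length, described below, the median difference was 4.13 points. There 79.4% of genes were higher in excitatory cells. The shares of the 40 genes reached 97.5% in excitatory and 97.7% in inhibitory cells, so some had little room to differ upwards. Nrg3, a ligand of ErbB4, was at 97.5% ± 11.2 and 97.7% ± 9.83 (SD over 85.3% and 90.03% of the cells), and Lrp1b, a lipoprotein receptor, at 84.5% ± 12.2 and 84.1% ± 14.3 (97.5% and 96.98% of the cells). The genes at least 10 points above the median, Dpp10 (10.3 points) and Ntrk3 (12.01 points), were named after their values were seen. Dpp10 is an auxiliary subunit of potassium channels and Ntrk3 the receptor of neurotrophin 3.

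Neuronal RNA-binding proteins, which regulate splicing and stability, had a median difference of 1.04 points over 24 genes. Rbfox1 had means of 80.1% ± 31.6 and 83.3% ± 29.3, and Celf2 77.9% ± 29.4 and 72.5% ± 28.6 (SD over at least 90.7% of the cells). Past 10 points were Elavl2, Srrm4 and Khdrbs2 (15.5, 11.9 and 10.1 points), named after their values were seen. Of 32 splicing factors none lay past 10 points in either direction, and the median share was 8.85% in excitatory and 9.61% in inhibitory cells. Among all compared genes, 8.92% lay at least 10 points above the median and 2.05% at least 10 points below it. The median intron length of the splicing factors was 12693.5 bp. In the 2nd of 5 groups by intron length, described below, which spans this length, the median difference was 1.15 points. Synaptic vesicle release genes had a median difference of 1.96 points over 30 genes, with Syt1, the calcium sensor of release, at 58.2% ± 32.7 and 49.1% ± 29.7 (97.97% and 97.1% of the cells).

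Ribosomal protein genes and genes of oxidative phosphorylation, which have short introns, had low shares in both classes. The median share was 1.98% and 1.35% over 65 ribosomal protein genes, and 5.49% and 6.65% over 65 genes of oxidative phosphorylation. Over 22 chaperones, with Hspa8 at 0.84% and 0.32%, the medians were 11.2% and 9.09%, and over 30 cytoskeleton genes, with Actb at 0.035% and 0.027%, they were 15.3% and 13.1%. None of these 4 lists held a gene past 10 points in either direction, against 8.92% of all compared genes above the median and 2.05% below it. A share near 0 leaves little room for such a difference. In the shortest of 5 groups of genes by intron length, described below, 52 of 2460 genes lay above and 34 below. The median intron lengths of the first 2 lists, 1196 and 5681 bp, fall in that group. Those of chaperones and cytoskeleton genes were 9260.5 and 19865 bp.

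Immediate early genes, which are transcribed within minutes of neuronal activity, had a median share of 1.84% in excitatory and 1.94% in inhibitory cells over 22 genes. Fos was at 0.56% ± 1.46 and 0.60% ± 1.47, and Egr1 at 0.22% ± 1.05 and 0.25% ± 2.44 (SD over at least 91.6% of the cells). Nr4a1, a nuclear receptor chosen after its value was seen, was the 1 gene past 10 points, at -12.02 points, with means of 14.3% and 25.001%. Among all compared genes, 2.05% lay at least 10 points below the median. Among 8 nuclear noncoding RNAs the medians were 2.49% and 2.35%. Malat1 had no intronic counts in the cells that entered, so that its nuclear location was not visible in its own share.

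The markers of the classes themselves had few cells on the side that should lack them. Gad1, which makes GABA, had a share of 22.5% ± 21.1 (SD over 99.2% of the cells) in inhibitory cells, and 13.2% ± 27.4 in the 37 excitatory cells with at least 20 counts. Nrgn, a calmodulin-binding protein of excitatory neurons, had 31.5% ± 35.002 in excitatory cells (87.6% of them) and 10.9% ± 28.03 in inhibitory cells (25.1%). Its exonic level was 179.2 CPM in excitatory and 11.3 CPM in inhibitory cells. Slc17a7, the vesicular glutamate transporter, had 1.88% ± 4.77 (94.7% of the excitatory cells) and 0.27% ± 2.22 (n = 77). Slc1a2, the main glutamate transporter of astrocytes, is also in the tables of both classes. Its share was 47.6% ± 29.7 in excitatory and 21.8% ± 32.7 in inhibitory cells (91.6% and 50.5% of them), with family means of 6.51% in Pvalb, 10.3% in Sst and 40.5% in Vip cells.

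The share of a gene differed far more with the length of its introns than with the class. Genes with an annotated intron were divided by their summed intron length into 5 equally filled groups of 2459 or 2460 genes. In the group of the shortest introns (median 2930.5 bp) the median share was 5.69% in excitatory and 5.15% in inhibitory cells, and in the group of the longest introns (median 152395 bp) it was 68.3% and 62.7%. The median difference between the classes was 0.10 points in the first group, followed by 1.15, 2.49, 3.62 and 4.13 points. The percent of genes with the higher share in excitatory cells was 54.02%, 62.5%, 70.2%, 72.5% and 79.4%.

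In 2019 this gradient was smaller. Relative to the median of all genes in the same period, the longest group lay at 3.40 points before 2019 and 0.95 points in 2019, and the shortest group at -1.88 and 0 points. Over 12296 genes, the logarithm of the intron length had a Pearson correlation of 0.711 with the share in excitatory and 0.683 in inhibitory cells, and of 0.210 with the difference. Of 1012 compared genes without an annotated intron, 1009 were at 0 in both classes.

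**Figure D5:**
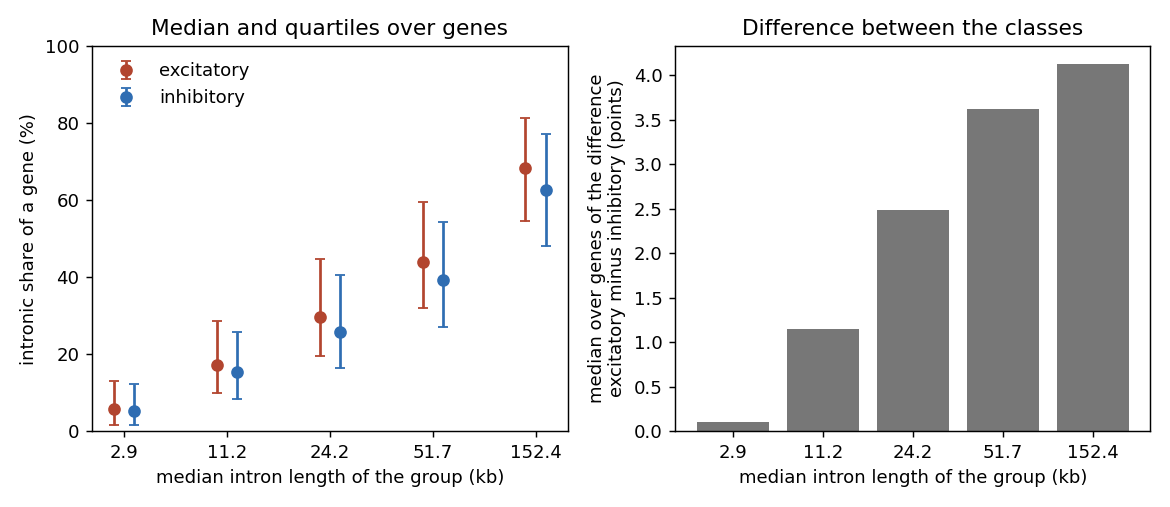
Left, median and quartiles over genes of the mean intronic share (vertical axis, percent) in 5 equally filled groups of genes by summed intron length (horizontal axis, median of the group in kilobases), excitatory in red and inhibitory in blue. Right, median over genes of the difference, excitatory minus inhibitory (percentage points). The share rises from 5.69% to 68.3% in excitatory cells and the difference from 0.10 to 4.13 points.

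The share of a class over all its counts can differ because single genes differ or because the genes take other portions of the counts. With the counts of a class summed, the share was 42.4% in excitatory and 37.1% in inhibitory cells. Of the difference of 5.26 points, 2.198 points fell to different shares within genes and 3.06 points, or 58.2%, to the different portions that genes took of the summed counts. These portions count intronic and exonic reads together, so that a difference in nuclear RNA also enters the second part and cannot be told apart there from different transcription. Split within each day with both classes, the SD over days was 8.49 points for the first and 12.7 points for the second part. Many of these days held few cells, so the SDs include the spread between cells. They do not give the uncertainty of the 2 parts from summed counts.

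The largest terms of the second part belonged to genes of unequal level, most of them with a high share. Ptprd, a receptor phosphatase of synapse formation, added 0.223 points, with 8436 intronic CPM in excitatory and 1037 in inhibitory cells. Dpp10 added 0.205 points (7949 and 526.6) and Celf2 0.125 points (5369 and 943). Snhg11, a noncoding RNA with a summed share of 0.16% in excitatory cells, added 0.116 points. In the other direction CT010467.1, without intronic counts, had the largest term, -0.171 points, at 36610 exonic CPM in excitatory and 26706 in inhibitory cells. Erbb4, the neuregulin receptor of interneurons, contributed -0.154 points with 19.6 and 4382 intronic CPM. Lsamp contributed -0.142 points (1743 and 5465) and Nrxn3 -0.129 points (4575 and 7683), both of them adhesion proteins of synapses, and Malat1, again without intronic counts, -0.0935 points.

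Within genes the contributions were smaller still. Dpp10 led with 0.0437 points, its summed share being 94.5% in excitatory and 77.9% in inhibitory cells. Syt1 added 0.0229 points, with summed shares of 69.6% and 58.6%. Against the general direction the first was Dlgap1, a scaffold protein of excitatory synapses, which contributed -0.0145 points with 72.9% and 83.05% at similar exonic levels (471.7 and 503.7 CPM). It was followed by Camk2a, the calcium-dependent kinase of excitatory synapses, with 34.2% in excitatory and 61.8% in inhibitory cells. Its exonic level was 722.9 CPM in excitatory and 219.5 CPM in inhibitory cells, whereas the intronic level was nearly equal at 375.3 and 355.05 CPM. Ppp3ca, the calcineurin catalytic subunit, at 61.6% and 73.3%, and Arhgap32, at 36.6% and 67.4%, also had more exonic counts in excitatory cells, 860.4 against 257.5 CPM and 605.4 against 70.3 CPM. Fgf13, at 41.2% and 71.7%, had fewer exonic counts in excitatory cells (64.8 and 137.9 CPM). These genes were taken by the size of their contribution, and sums weight deeply sequenced cells.

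Intronic counts were spread over many genes. The 10 genes with the most were Ptprd, Nrxn3, Gnb1l, Nrg3, Dlg2, Kcnip4, Csmd1, Lsamp, Rbfox1 and Cmss1, and each held between 0.175% and 1.30% of the intronic counts of a class. All 10 overlap another annotated gene, so that reads could belong to the partner. Gnb1l and Cmss1 had almost no exonic counts, with shares of 99.8% ± 0.83 and 98.97% ± 2.89 (SD) in excitatory cells and 99.8% ± 0.86 and 99.2% ± 2.74 in inhibitory cells.

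Seen over the same genes, the order of the families was similar to that over cells. Over 7114 genes that entered with at least 5 cells in each of 9 families, the median share was 31.5% in ET, 27.97% in IT and 27.6% in L6b cells. It was 26.2% in Sncg, 26.1% in Pvalb, 23.6% in Sst, 22.7% in Lamp5, 20.8% in Vip and 20.7% in CT cells. CT was again the lowest and below all inhibitory families, and 81 of its 82 cells came from 2019.

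At 34 °C, in other cells recorded with blockers of fast synaptic transmission and mostly from layer 5, the difference between the classes was larger. The median share was 40.3% (quartiles 21.3% and 53.5%, n = 57) in excitatory and 23.01% (15.95% and 35.1%, n = 97) in inhibitory cells, a difference of 17.3 points. Of these inhibitory cells 89 were Sst and of the excitatory ones 43 were IT, so that temperature, blockers and families cannot be told apart. With at least 10 cells of each class, 917 of the genes past 10 points at 25 °C could be compared, and 81.9% of them lay on the same side of the median, against 69.4% of all 10980 genes compared at both temperatures. By direction it was 84.8% of the genes with the higher share in excitatory and 65.4% of those with the higher share in inhibitory cells. The median difference was 1.32 points at 25 °C and 3.14 points at 34 °C. Genes without intronic counts in either class lay below both medians, so they agreed by construction and raised the 69.4%. Of the 12 leading genes with a higher share in excitatory cells 6 were compared and 6 had the same direction, including Col11a1, Lamb1 and Dap. Of the 12 leading genes in the opposite direction 2 were compared, Lrrc6 and 2810459M11Rik, and both had a higher share in excitatory cells, at 21.6 and 12.9 points.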

How the data were processed

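Exonic and intronic counts per gene were used as the authors deposited them, as whole read counts without normalization. Per the methods, single-end reads of 75 bp were aligned to mm10 with STAR (version 2.5.4b, after bcl2fastq 2.20) and counted with zUMIs and the GENCODE M23 annotation. A read in an intron that overlaps another gene can be assigned to either. Intron lengths, overlaps and coordinates were taken from GENCODE M21 (mm10), which named 13308 of the 13482 compared genes. Columns without a sample (9) and 85 spike-in rows, with 4.69% of the exonic counts, were left out. All columns used were checked to hold whole numbers of at least 0.

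The share per cell and gene was 100 × intronic / (intronic + exonic) counts, averaged over cells of a class with at least 20 counts, for genes with at least 30 such cells per class. The split of the summed difference into 2 parts weights each gene by the mean of both classes. The t-type of the labels gave the class and family of a cell, with PT read as ET. Each class was treated as 1 sample, since no animal is named, and no test was run. The cells, gene lists and rules were chosen with earlier results of these data known. Named genes are the 12 with the largest relative difference in each direction that kept it in both periods (at least 10 cells of each class) without overlap, the 3 genes of each of the lists with the most cells, the 10 genes with most intronic counts and the class markers. Of these a selection is printed, and some genes are not reported here. The functions were tested on simulated data. Doublets were not searched for, as each cell was aspirated singly. Python 3.11.15, numpy 2.4.6, pandas 2.3.3, scipy 1.17.1 and matplotlib 3.10.9 were used. Alternatives changed the depth limit, period, families, genes, counts and cells per gene, weights and thinning.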

Additional observations from a re-analysis of the deposited data

Results flagged for a closer look

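Among 30 families and t-types of 4 to 10 cells, 2 had 1 cell with an intronic share far from the rest by Dixon's ratio, close to the 1 in 20 that chance gives. The lowest of 9 Lamp5 Egln3_1 cells had 3.94%, with the next at 35.1% and a median of 43.5%. The lowest of 7 Sst Pvalb Etv1 cells had 4.36%, with the next at 36.2% and a median of 44.3%. Both lie in the group of cells with few intronic reads that was found in most families.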

How the results depend on the processing

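The difference of the medians per cell stayed positive in all 23 alternatives, from 3.21 points (mean over days with both classes) to 9.84 points (without the CT family), and both parts of the summed difference stayed positive in 21 each. The median over genes was 0 in the last recording year, 0.0106 on days with both classes, and -3.87 points when the share of each cell was subtracted from its genes, an alternative added after seeing the data that removes the class difference per cell by construction. Genes at least 10 points higher in excitatory cells made up 8.92% of those compared, against 4.88% in the last recording year, 7.80% without the IT family, 6.02% on days with both classes, 9.08% without overlapping genes, 8.69% in cells thinned to 200000 counts, 11.4% with at least 10 and 7.10% with at least 60 cells per class. Genes at least 10 points higher in inhibitory cells made up 2.05%, against 1.85% without overlapping genes, 2.42% after thinning, 3.39% with at least 10 and 1.42% with at least 60 cells, and 3.75% from summed counts. In all of these the number of such genes differed from the main number by more than 1.5 times, in part because 5838 genes were compared without overlapping genes, 6722 after thinning and 17330 with at least 10 cells, against 13482. The cause of the other shifts was not tested. Genes at least 10 points higher in inhibitory cells made up 3.30% in the last recording year and 3.13% on days with both classes. There the number of such genes stayed within 1.5 times of the main number. In both alternatives the percents of the directions were closer to each other than 8.92% and 2.05%. Up to 8 alternatives were run gene by gene, among them the recording periods. The 12 leading genes in each direction had been chosen for keeping their direction in both periods. For them the alternatives by period were therefore fixed in advance and are no check. The 29 genes past 10 points that the naming rule chose kept their direction wherever they had a value, except Arhgap25, at 1.71 points with at least 50 counts per cell. Genes named after their values were seen are outside this number, and of these Gabrg1 and Cacna1i had the other direction in the last recording year. No paired analysis was possible by replicate number because the labels give the classes none that they share. Pairing by recording day was possible and gave a mean difference of 3.21 points over all days with both classes and 0.0166 points over the 43 days with at least 2 cells of each. The share of a gene in 1 cell can rest on as few as 20 counts.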
